A study of Mus musculus with 6 samples.

Results

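The miR-10 and miR-196 families are encoded within the Hox clusters, the groups of homeobox genes that set position along the body axis. Members were taken by name: every mouse miRNA on the array called miR-10a, miR-10b, miR-196a or miR-196b, both arms included. These were 9 of 1247 mouse miRNAs, written here without the array's species prefix (mmu-miR-10a-5p and mmu-miR-10b-5p are miR-10a-5p and miR-10b-5p). They had drawn attention through their signals and detection on these same arrays, so their differences between the groups are given below as a description, with no p-value. Where a fit over all miRNAs makes calls, the call of a member is stated beside the share of all miRNAs called, and nothing is read from it. Livers came from male C57BL/6 mice. The CCl4 group received intraperitoneal carbon tetrachloride, a liver toxicant, at 0.6 mL per kg in corn oil 2 times per week for 10 weeks, starting at 7 weeks of age. The control group received an equal volume of corn oil on the same schedule. Each group held 3 livers, and each liver was hybridized to 1 single-color (Cy3) Agilent miRNA array. The whole liver was the source of the RNA, so fewer cells of a type and less RNA per cell cannot be told apart.

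miRNAs are short RNAs that pair with messenger RNAs, mainly through the seed near their 5′ end, and lower the output of those messages. The miR-10 genes and the miR-196 genes lie between or within Hox genes, and their mature forms are known to target several Hox messages, among them Hoxb8 for miR-196. In adult mammals both families are known mostly from the posterior body, with miR-10 also abundant in kidney, muscle and endothelium, while the hepatocyte is dominated by miR-122.

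The mature sequences are shown because the families are defined by their seeds and because near-identical members could share signal on an array. Sequences and coordinates are those of RefSeq on GRCm38.p6, and all 9 members matched. Capitals mark the seed, bases 2 to 8 counted from the 5′ end. The first 4 lines are the miR-10 and miR-196 5p arms, followed by the 3p arm of miR-10a and by the 3 5p arms of the related miR-99 and miR-100.
miR-10a-5p: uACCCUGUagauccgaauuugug
miR-10b-5p: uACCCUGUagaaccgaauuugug
miR-196a-5p: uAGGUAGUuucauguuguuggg
miR-196b-5p: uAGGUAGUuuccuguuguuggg
miR-10a-3p: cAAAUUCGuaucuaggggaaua
miR-99a-5p: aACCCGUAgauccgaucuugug
miR-99b-5p: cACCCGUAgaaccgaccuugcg
miR-100-5p: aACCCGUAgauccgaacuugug

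miR-10a-5p and miR-10b-5p had the same seed and differed at 1 of 23 bases, U12A, with positions counted from the 5′ end and the miR-10a base given first. Their seed, ACCCUGU, was found in 2 of 1679 mature mouse miRNAs, these 2 themselves. miR-196a-5p and miR-196b-5p likewise differed at 1 of 22 bases, A12C, and their seed AGGUAGU was also held by 2 mature miRNAs. The miR-99 and miR-100 arms had a different seed, ACCCGUA, but miR-100-5p shared a run of 11 bases, GUAGAUCCGAA, with miR-10a-5p. The miR-196a seed occurs in let-7a-5p as a run of 7 bases shifted by 1 position. How far each probe takes up a relative that differs by 1 base was not measured here.

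The 5 genes lie in 4 Hox clusters. The mature miR-10a-5p is at chr11:96317186-96317208 on the plus strand, with Mir10a between Hoxb5 and Hoxb4 and inside the annotated span of Hoxb3. miR-10b-5p is at chr2:74726074-74726096 on the plus strand, inside the annotated spans of Hoxd3 and Hoxd4. miR-196a-5p is made from 2 genes with the same mature sequence. The copy from Mir196a-1 is at chr11:96265187-96265208, between Hoxb13 and Hoxb9, and the copy from Mir196a-2 is at chr15:102973365-102973386, between Hoxc10 and Hoxc9, both on the plus strand. miR-196b-5p is at chr6:52230129-52230150 on the minus strand, between Hoxa9 and Hoxa10. The table used gives gene spans and not exons, so exonic and intronic positions were not assigned.

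The third CCl4 array stood apart from the other 5. It had 334 detected miRNAs, against 245 and 227 on the other CCl4 arrays and 186 to 193 on the corn oil arrays. Its rank correlation with the other arrays over the 166 miRNAs detected on all arrays was 0.792 to 0.860, and the lowest among the other 5 arrays was 0.874. The hepatocyte miRNA miR-122-5p had a total signal of 2158 there and 13110 to 18345 elsewhere. All 6 arrays were on 1 slide, with CCl4 in one row and corn oil in the other, so treatment and slide row cannot be told apart.

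Of the 9 members, 1 was detected on all 6 arrays, 3 on the third CCl4 array alone and 5 on none. miR-10a-5p was the member detected throughout, as were 166 of 1247 miRNAs (13.3%). miR-10b-5p, miR-196a-5p and miR-10a-3p were detected on the third CCl4 array alone, as were 111 of 1247 (8.90%). miR-10b-3p, miR-196a-1-3p, miR-196a-2-3p, miR-196b-5p and miR-196b-3p were not detected on any array. Thus no member other than miR-10a-5p was detected in corn oil livers or in the other 2 CCl4 livers.

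**Figure D1:**
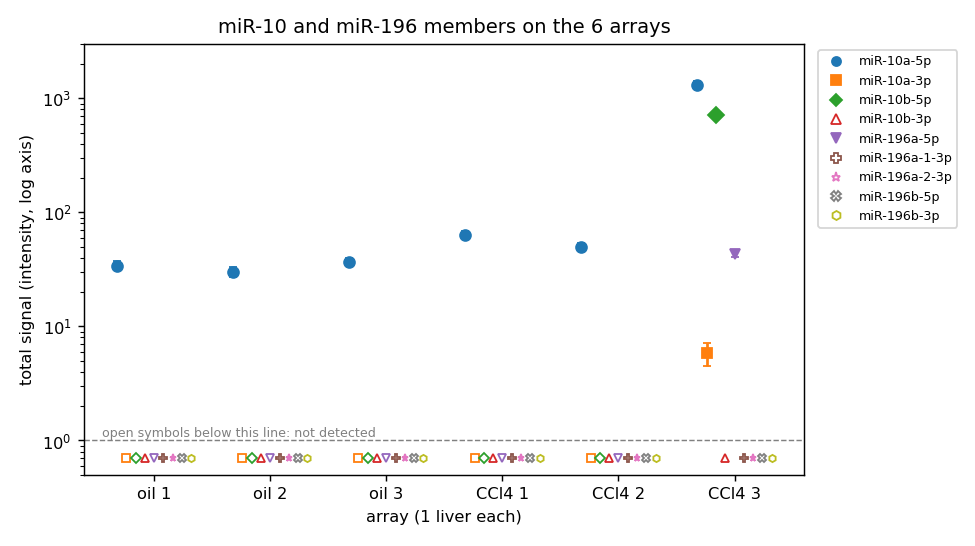
Total signal of the 9 members on each of the 6 arrays, on a log axis; bars show the scanner software's error of each signal, and open symbols below the dashed line mark members that were not detected. miR-10a-5p lies between 30.1 and 63.4 on 5 arrays and at 1320 on the third CCl4 array, where miR-10b-5p (715), miR-196a-5p (43.3) and miR-10a-3p (5.88) also appear.

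miR-10a-5p, the most widely detected member, was brighter in all 3 CCl4 livers than in the 3 corn oil livers before any scaling, but by very different amounts. Its total signal was 34.1, 30.1 and 36.8 on the corn oil arrays. It was 63.4, 49.8 and 1320 on the CCl4 arrays, where the error given by the scanner software was 5.09, 4.17 and 99.1. The first 2 CCl4 arrays were just above the corn oil range and the third was far above both. The groups did not overlap on this unscaled scale, which was also true of 109 of 166 miRNAs (65.7%), so this separation was shared by most miRNAs tested.

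The modest difference on the first 2 CCl4 arrays shrank when overall array brightness was removed. Their mean unscaled signal was above the corn oil mean by 0.74 on the log2 scale (1.67-fold), against a median of 0.45 over the 166 miRNAs, and 62 miRNAs (37.3%) had a larger difference. Each array was then scaled to its 75th percentile, taken here and below over the 166 miRNAs detected on all arrays. After this scaling the difference was 0.10 (1.07-fold), against a median of -0.19. The scaled log2 values were -2.26, -2.34 and -2.14 in corn oil, and -2.13 and -2.15 in these CCl4 livers. The second of these lay within the corn oil range, and the groups overlapped on this scale, while those of 77 of 166 miRNAs (46.4%) did not.

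In the third CCl4 liver, miR-10a-5p was high on each scale. Its unscaled signal exceeded the mean of the other CCl4 arrays by 4.55 on the log2 scale (23.5-fold), and after scaling to the 75th percentile by 3.01 (8.05-fold). The median over the 166 miRNAs was 1.36 unscaled and -0.19 scaled. Of these, 1 miRNA (0.602%) had a larger difference, miR-7a-5p, which is known from neuroendocrine tissue. Against the corn oil mean, the unscaled difference of miR-10a-5p was 5.30 (39.3-fold), and 4 miRNAs had a larger one.

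**Figure D2:**
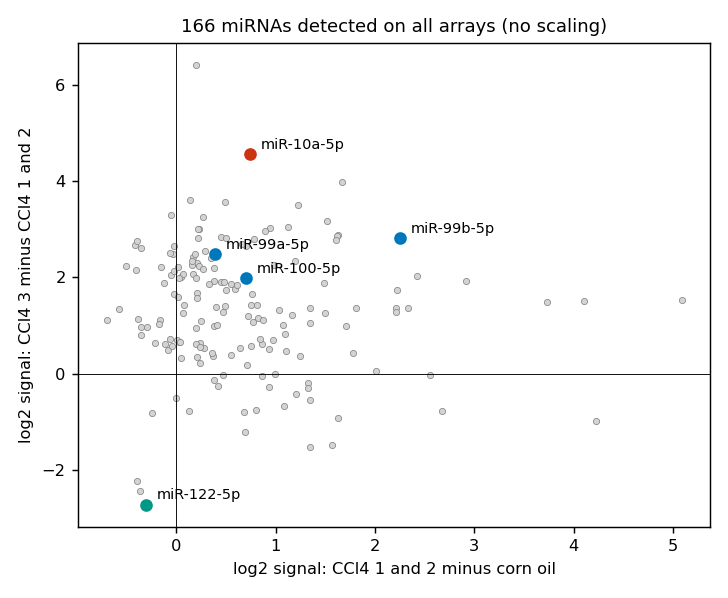
Each point is 1 of the 166 miRNAs detected on all arrays: the x axis gives the unscaled log2 signal of CCl4 arrays 1 and 2 minus corn oil, the y axis that of CCl4 array 3 minus CCl4 arrays 1 and 2. miR-10a-5p lies at 0.74 on the x axis, among many others, and at 4.55 on the y axis, with 1 miRNA above it.

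Quantile normalization, which gives every array the same distribution of values, removed the separation of the groups. The normalized log2 values of miR-10a-5p were 5.68, 5.68 and 5.96 in corn oil (mean 5.77 ± 0.16, SD, n = 3). They were 5.68, 5.65 and 8.63 in CCl4 (6.65 ± 1.72, SD, n = 3). The first 2 CCl4 values were at or below the corn oil values, and the third alone was above them. The groups overlapped, while those of 65 of 166 miRNAs (39.2%) did not.

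The limma difference between the groups for miR-10a-5p was 0.88 on the quantile-normalized log2 scale, with a standard error of 0.86, and 25 of the 166 miRNAs had a larger one. The median over the 166 was -0.14. Calls were made at an adjusted p under 0.05 with more than a 2-fold change, and 20 of 166 miRNAs were called (12.0%), 12 of them higher in CCl4 (7.23%). miR-10a-5p was not among them, so 0 of the 1 member in the fit was called. The other 8 members were left out because each was undetected on at least 1 array. Without the third CCl4 array the difference was -0.11, with a standard error of 0.11, and 28 of 166 miRNAs were called (16.9%), 16 of them higher in CCl4 (9.64%), again without miR-10a-5p. On the same 5 arrays it was 0.10 with scaling to the 75th percentile and 0.74 with no normalization, so even its direction depended on the scaling.

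**Figure D3:**
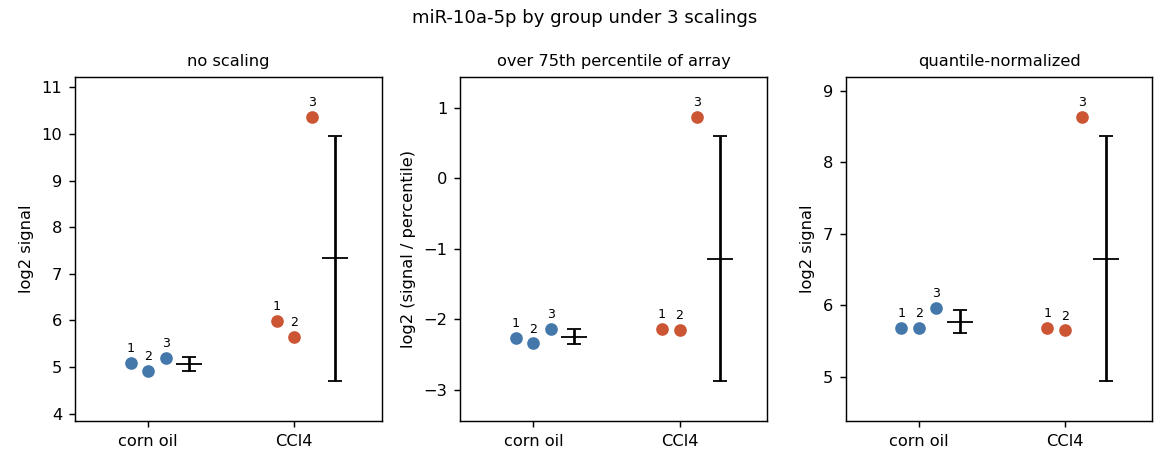
Log2 signal of miR-10a-5p in each liver (numbered by replicate) under 3 scalings, with the mean ± SD of each group (n = 3) to the right of its points. Replicate 3 of CCl4 is above all other livers in each panel, and replicates 1 and 2 of CCl4 are both above corn oil with no scaling but not in the other panels.

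The probes showed that the high miR-10a-5p signal did not come from a few spots. Both probes were present as 20 spots on each array, and all 40 spots were well above background on every array. On the third CCl4 array the processed spot signal ran from 988 to 1225 for the first probe and from 2084 to 2482 for the second, with a coefficient of variation of 5.82% and 3.97%. The total probe signal was 10.2, 9.76 and 11.7 in corn oil and 19.7, 15.6 and 428 in CCl4 for the first probe. For the second it was 24.0, 20.3 and 25.1 in corn oil and 43.7, 34.3 and 892 in CCl4. The order of the groups was thus the same for both probes, with differences of 0.74 and 0.75 on the log2 scale between the first 2 CCl4 arrays and corn oil.

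miR-10b-5p, the paralog that differs by 1 base, had a total signal of 715 on the third CCl4 array, with an error of 55.9. All of its 40 spots there were well above background, and the spot signal ran from 453 to 558 for one probe and from 1274 to 1450 for the other. On the remaining 5 arrays it was not detected. Its first probe gave a total signal of -0.03 to 0.70 on those arrays and 190 on the third CCl4 array, and its second gave 1.34 to 3.34 against 525. Signals near 0 and below it are what background subtraction leaves, and here no probe exceeded 2.66 times its error on the other arrays.

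The miR-10b-5p signal could be bounded against a detection floor, the lowest signal of any miRNA with over 50% of its spots well above background on an array. Unscaled, it was at least 56.2-fold higher than the highest floor of the other 5 arrays. After scaling to the 75th percentile it was at least 14.2-fold higher. This bound holds for 1 liver of 3, and the other CCl4 livers were below detection like the controls. On the same 5 arrays every miR-10a-5p spot was well above background, at total signals of 30.1 to 63.4, against 1320 on the third CCl4 array. Whether the miR-10b-5p probes take up miR-10a-5p was not tested.

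miR-196a-5p had a total signal of 43.3 on the third CCl4 array, with an error of 2.91 and 92.5% of its spots well above background. Its 4 probes read 5.10, 10.7, 12.9 and 14.6 there. Each of them was higher on this array than on any other, where they read -0.09 to 0.43. The unscaled signal was at least 3.40-fold above the highest floor of the other arrays. After scaling to the 75th percentile it was below that floor, so no scaled fold is given.

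miR-10a-3p, the passenger arm of miR-10a, was at the edge of detection. Its total signal on the third CCl4 array was 5.88 with an error of 1.34, and none of its spots was well above background (0%). The 4 probes read -0.33, 0.96, 2.87 and 3.01, and 3 of them were higher there than on any other array. No fold is given for this arm.

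The 4 detected members had 12 probes, of which 11 were highest on the third CCl4 array. Of these members, 3 were detected on that array alone. This count, and its contrast with the undetected members below, was therefore largely set by how the members were grouped. The share over all probes of the array was not computed. The count was also 11 when the median net signal of the spots was used. The 5 undetected members had 14 probes, of which 5 were highest on that array and 1 with the median net signal. At most 5% of the spots of these 5 miRNAs were well above background on any array. miR-196b-5p, which differs from miR-196a-5p by 1 base, was among them, with probe signals of -0.03 and 1.93 on the third CCl4 array.

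**Figure D4:**
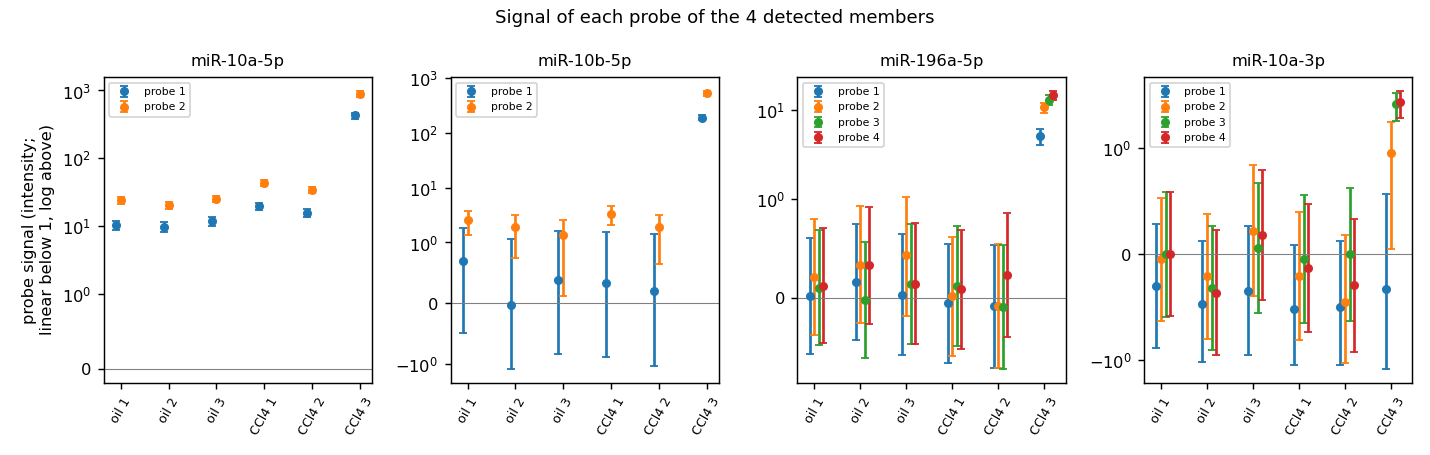
Total signal of each probe of the 4 detected members on the 6 arrays, with bars for the scanner software's error; the axis is linear below 1 and logarithmic above. All 12 probes except 1 of miR-10a-3p are highest on the third CCl4 array, and those of miR-10b-5p, miR-196a-5p and miR-10a-3p are near 0 elsewhere.

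The 5p arms of the related miR-99a, miR-99b and miR-100 were detected on all 6 arrays. Each had its highest unscaled signal on the third CCl4 array. Of the 3p arms, miR-99b-3p was detected on that array alone (total signal 5.77), as were 8.90% of all miRNAs. The miR-99a-3p and miR-100-3p arms were not detected on any array. miR-99a-5p had a total signal of 102, 93.5 and 113 in corn oil and 150, 121 and 750 in CCl4. miR-100-5p, with the 11-base run shared with miR-10a-5p, had 25.3, 24.1 and 31.4 in corn oil and 54.4, 34.6 and 171 in CCl4. Their unscaled excess on the third CCl4 array over the other 2 was 2.48 for miR-99a-5p, 2.81 for miR-99b-5p and 1.98 for miR-100-5p on the log2 scale, smaller than the 4.55 of miR-10a-5p. In the quantile-normalized limma fit, 1 of these 3 was called, miR-99b-5p (Benjamini-Hochberg adjusted p = 0.0301), beside 12.0% of all miRNAs. Its total signal was 6.57, 5.63 and 7.59 in corn oil and 36.9, 26.5 and 220 in CCl4. The unscaled groups did not overlap, as was true of 65.7% of all miRNAs. In the corn oil livers no array had more than 47.5% of the miR-99b-5p spots clear of background, and its signal was below the detection floor, so its change is given as a bound. It was at least 2.40-fold higher in CCl4 on the quantile-normalized scale, and at least 1.77-fold higher without the third CCl4 array. The limma fit without that array also called miR-99b-5p (log2 difference 1.46, adjusted p = 0.00183), beside 16.9% of all miRNAs. Both adjusted p-values of miR-99b-5p belong to differences of the measured signals and not to the bounds. miR-99a-5p (-0.23, adjusted p = 0.702) and miR-100-5p (-0.01, adjusted p = 0.986) were not called, and without the third CCl4 array the differences were -0.65 (adjusted p = 0.00201) and -0.15 (adjusted p = 0.494). The first of these passed the p threshold but not the 2-fold one.

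The remaining Hox-cluster miRNA, miR-615 inside the span of Hoxc5, behaved like the dim members. miR-615-3p was detected on the third CCl4 array alone, with a total signal of 5.08 and 20% of its spots well above background, and miR-615-5p was not detected on any array.

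Markers of other cell types also differed on the third CCl4 array, and their part in the member signals was not tested. Summed signals are given unscaled and then divided by the array's 75th percentile over the 166 miRNAs detected on all arrays, since the third CCl4 array was the brightest. The 8 hepatocyte miRNAs on the array summed to 19616 to 21570 in corn oil, 15635 to 18442 on the first 2 CCl4 arrays and 4664 on the third, and after scaling to 129 to 133, 56.3 to 83.4 and 6.45. This sum was lowest on the third CCl4 array on both scales. Most of it was miR-122-5p, and miR-122-3p was not detected on the third CCl4 array. On the other hand, the unscaled signals of miR-101a-3p (297 there, 64.3 to 74.6 elsewhere) and miR-30a-5p (1553 there, 484 to 531 elsewhere) were higher. Their unscaled log2 excess there over the corn oil mean was 2.10 and 1.61, beside a median of 2.05 over the 166 miRNAs. Over the other CCl4 arrays it was 2.12 and 1.59, beside a median of 1.36. Their quantile-normalized limma differences between the groups were -0.72 and -0.26.

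The 6 stellate and mesenchymal miRNAs, led by the miR-199 group, summed unscaled to 67.2 to 109 in corn oil, 255 to 643 on the first 2 CCl4 arrays and 1236 on the third. The scaled sums were 0.441 to 0.674, 1.15 to 2.32 and 1.71. They were thus above corn oil in all 3 CCl4 livers on both scales, with the third highest unscaled but within the range of the other CCl4 arrays after scaling. The pair of endothelial miRNAs summed unscaled to 563 to 677, 821 to 824 and 3732. Scaled, the sums were 3.70 to 4.19, 2.97 to 3.71 and 5.16, so the third CCl4 array was highest on both scales. Most of the sum was miR-126-3p, at 3675 unscaled on that array, beside 57.3 for miR-126-5p. The quantile-normalized limma differences between the groups were 0.32 for miR-126-3p and -0.06 for miR-126-5p. The 2 red cell miRNAs on the array summed unscaled to 466 to 754, 315 to 730 and 2135. Scaled, they summed to 2.85 to 4.95, 1.42 to 2.63 and 2.95, and the third CCl4 array fell within the corn oil range. The 6 leukocyte miRNAs summed unscaled to 77.7 to 91.0, 346 to 475 and 457, with miR-155-5p undetected on the third CCl4 array, and scaled to 0.510 to 0.560, 1.57 to 1.71 and 0.633. The 7 epithelial miRNAs summed unscaled to 31.4 to 74.8, 44.3 to 157 and 56.8, and scaled to 0.206 to 0.462, 0.200 to 0.564 and 0.0786. Both lists were below the other CCl4 arrays on the third one after scaling, and miR-200c-3p, miR-141-3p and miR-205-5p were undetected throughout.

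Tissue markers outside the liver were present in part. Of all 1247 miRNAs, 334 were detected on the third CCl4 array, and 111 (8.90%) there alone. All 3 endocrine miRNAs were detected on the third CCl4 array, with an unscaled sum of 1952 against 9.65 to 10.9 in corn oil and 9.87 to 13.5 on the other CCl4 arrays. The scaled sum was 2.70 there, against 0.0603 to 0.0668 and 0.0446 to 0.0488. Of these, miR-375-3p, known from pancreatic islets and gut endocrine cells, and miR-7b-5p were detected on that array alone. Of 6 brain miRNAs, 4 were detected there, with an unscaled sum of 175 against 7.13 to 21.7 on the other CCl4 arrays (scaled, 0.242 against 0.0322 to 0.0782), and none was detected in corn oil. Of the brain list, miR-124-3p (6.37) and miR-137-3p (52.8) were detected on the third CCl4 array alone. miR-128-3p (33.9 there) and miR-132-3p (82.0 there) were also detected elsewhere in the CCl4 group. The rest of the brain list, miR-9-5p and miR-138-5p, was undetected on every array. Of 6 miRNAs listed under kidney and trunk, 2 were detected, both on the third CCl4 array alone. They were miR-204-5p, with a total signal of 33.9, and miR-615-3p, the Hox-cluster arm given above. The rest of that list, miR-211-5p, miR-615-5p, miR-216a-5p and miR-217-5p, was undetected on every array. The list name does not state where each of its miRNAs is expressed. The 4 muscle miRNAs were not detected on any array.

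The miRNAs most like miR-10a-5p over the 6 arrays, by Pearson correlation of quantile-normalized log2 values, were miR-29a-3p (0.995), miR-5100 (0.995), miR-338-3p (0.995), miR-29b-3p (0.994) and let-7a-5p (0.993). On this scale they share the third CCl4 array as their single high point. Unscaled, the log2 excess there over the other CCl4 arrays was 0.72 for miR-5100, below the median of 1.36 over the 166 miRNAs. It was 2.34 to 3.56 for the others listed. Over the other 5 arrays the correlation was 0.606 for miR-338-3p, 0.148 for miR-29b-3p and 0.353 for let-7a-5p, and it could not be computed for miR-29a-3p and miR-5100, which had the same normalized value on all 5. The likeness was thus a description of 1 array. miR-10b-5p, seen on that array alone, was nearest in log2 signal to miR-375-3p (769), miR-127-3p (818), miR-154-5p (418), miR-379-5p (338) and miR-434-3p (332) among the miRNAs detected only there. Signals of different probes are not amounts of RNA, so this names arms with a like brightness and no more. The last 4 are encoded in the imprinted Dlk1-Dio3 region.

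The authors' own normalized values cover 111 miRNAs and 1 member, miR-10a-5p. It stood at 53.9, 68.2 and 52.6 in corn oil and at 55.6, 49.0 and 484 in CCl4. The corn oil columns 1, 2 and 3 of that table have the rank order of scanner arrays 2, 3 and 1, which leaves the group means as they are. The first 2 CCl4 values were within or below the corn oil range and the third was above it. The log2 difference in these values was 0.92 with a standard error of 0.95. Over the other alternatives it ran from -0.11 without the third CCl4 array to 2.26 with no normalization.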

How the data were processed

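Total RNA of 6 mouse livers, extracted with TRIzol, was hybridized to Agilent miRNA arrays. The deposited scanner files, made by the authors with Agilent Feature Extraction 11.0.1.1, give background-subtracted intensity per spot, per probe and per miRNA on a linear scale; an undetected miRNA holds a placeholder of 0.1. The authors also deposited normalized linear intensity values of 111 miRNAs. No spot was saturated (0 of 52044 per array). The number of arrays limits the precision. Total signals were log2-transformed and quantile-normalized over the 166 miRNAs detected on all arrays, and groups were compared with limma 3.58.1 (R 4.3.3, lmFit and eBayes, Benjamini-Hochberg adjustment over 166). A call required an adjusted p under 0.05 and over 2-fold. The code was tested on simulated data. The labels do not say more of the replicates than that they are separate samples, so p-values measure the spread between these samples. Named miRNAs were the members, the miR-99 and miR-100 relatives, the 5 nearest to miR-10a-5p and to miR-10b-5p, and the marker lists: hepatocyte, stellate and mesenchymal, endothelial, leukocyte, red cell, epithelial, kidney and trunk, muscle, brain and endocrine. Members, lists and alternatives were chosen with earlier results of these data known. Python 3.11.15 was used for the summaries. Sequences came from RefSeq (GRCm38.p6); the array design refers to an older build, and the array files give no miRNA coordinates.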

Additional observations from a re-analysis of the deposited data

Results flagged for a closer look

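Signals were present on the third CCl4 array for 3 members that the group comparison left out, and the same members were undetected on all 3 corn oil arrays. The total signal there was 715 for miR-10b-5p, 43.3 for miR-196a-5p and 5.88 for miR-10a-3p. Groups of 3 arrays were not screened for outlying values.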

How the results depend on the processing

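miR-10a-5p was not called in any fit. Its difference was positive under 15 of 17 alternatives and negative under 2: -0.06 with array weights and -0.11 without the third CCl4 array. All 15 positive alternatives kept the third CCl4 array at full weight, so they do not count as separate results. Leaving out 1 array at a time gave -0.11 to 1.42. The replicate block gave 0.88, a difference that blocking cannot change with 1 array of each group per block. The number of miRNAs called was 20 of 166 at first, and 48 had an unadjusted limma p under 0.05. It was 11 of 166 when quantile normalization used all miRNAs and preceded filtering, and 4 of 166 with normexp background correction. Array weights gave 31 of 166, and leaving out 1 array gave 5 to 28 of 166. Some alternatives changed the number tested. The count was 32 of 215 when detection throughout either group sufficed, and 6 of 1247 with no detection filter. With the deposited values it was 12 of 111. Of the calls, 12 were higher and 8 lower with quantile normalization, 11 and 5 with scaling to the 75th percentile, and 18 and 0 with no normalization. Without the third CCl4 array and with no normalization, an alternative chosen after seeing the data, 41 were called. The replicate block gave 6 calls. Deviations of equally numbered arrays from their group means correlated at -0.18, 0.109 and 0.0293, and not every array correlated best with its own number. With 3 arrays per group these values cannot decide whether equal replicate numbers mark pairs. Unscaled, the bounds of miR-10b-5p and miR-196a-5p were 56.2 and 3.40. The cause of these changes was not tested. Scaling to the 75th percentile of all miRNAs was not run, because that percentile is the placeholder of undetected miRNAs on 5 arrays. Precision was limited by 3 arrays per group, and members below background have only bounds.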
